A study of Canis lupus familiaris with 60 samples.

Results

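Skin under a saline patch was compared between 24 hr and 6 hr after application in 12 Beagle dogs. All 24 arrays of saline-treated skin in the series of 60 arrays were used, 12 from each time, and the 2 arrays of a dog were paired by its animal number. Of the dogs, 6 were sensitized, with an earlier epicutaneous exposure to D. farinae house dust mites (4 males and 2 females), and 6 were nonsensitized controls (2 males and 4 females). They were 2 to 3 years old. An area of the lateral chest was shaved in every dog, and 4 days later each dog received a patch with 50 μl of saline and, at another site of the same area, a patch with 75 mg of mite paste. Biopsies of 8 mm were taken under local anesthesia with lidocaine, 1 from untreated skin at 0 hr and 1 from each patch site at 6 hr and at 24 hr, so every saline site was bandaged skin in an animal that carried a mite patch and earlier biopsies nearby. The dogs carried no genetic modification. The quantity measured was the brightness of Cy3-labeled cRNA on a one-color canine array, given here as a log2 signal after variance stabilization (vsn).

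A saline patch is the negative control of a patch test, and its site still meets occlusion, shaving and the biopsy itself. Injured skin releases alarmins and cytokines from keratinocytes and fibroblasts, and these induce chemokines that draw neutrophils and then monocytes from the blood. Soluble pattern recognition proteins, complement and matrix proteases with their inhibitors are induced along the same course, while tissue repair by the epidermis takes days.

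Time and array slide could not be told apart, because the 12 arrays of 24 hr skin were on slides 1 to 3 and the 12 arrays of 6 hr skin on slides 4 to 6. The time of day, the earlier biopsies in the same area and the bandage change at 6 hr likewise cannot be told apart from time after the patch. Median signals before scaling ran from 83.0 to 108 on the 6 hr arrays and from 116 to 146 on the 24 hr arrays, and 70.2 to 74.8% and 68.9 to 77.4% of spots were well above background. Synthetic RNA spiked into the labeling (7 probes) was brighter at 24 hr by 0.74 ± 0.21 on the log2 scale (SD, n = 12 dogs, 12 of 12 dogs) before scaling and by 0.30 ± 0.31 (9 of 12 dogs) after it. Within the single scan session described next the shift was 0.67 before and 0.34 after scaling (4 dogs), so it was still present there. The part of this shift in the changes below was not tested. No saturated spot was recorded at either time. In 4 dogs (3 sensitized and 1 nonsensitized) the 24 hr array had been scanned in the same session as the 6 hr arrays, and values from these dogs alone are given where a named gene lost its call in them. The 24 hr arrays of these 4 dogs were all on slide 3 and their 6 hr arrays on slides 4 to 6. Time and slide could therefore not be told apart in this subset either. Keratinocyte and dermal transcripts were present as the tissue label implies: the probes of KRT1, a keratin of the upper epidermis, KRT15, a basal keratin, and COL1A1, a type I collagen chain, were well above background on all 24 arrays.

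Of 42663 probes that were well above background on 10 of 12 arrays of either time, 1355 were higher and 1002 lower at 24 hr over both groups of dogs (limma with dog as block, FDR 5% and FC of at least 1.5), which is 5.52% of the probes tested, 3.18% higher and 2.35% lower. The median change over all probes was -0.012 on the log2 scale. For 1155 of the 2357 DEG probes all 12 dogs moved in the same direction. Within the single scan session (4 dogs, which are among the 12), 1345 of the 1355 higher probes kept their sign, 762 were past 1.5-fold and 496 were called. Of the 1002 lower probes 843 kept their sign there, 400 were past 1.5-fold and 360 were called. Over all probes that session called 680 higher and 840 lower, and scan session as a term gave 778 and 772. Nonsensitized dog 2847 was left out of the fit with this term, because its 6 hr array had no scan record. Most probes carry no gene symbol in the tables used here: 1177 genes other than those of the LOC kind could be named and measured, each by its brightest probe, of which 180 rose and 37 fell. Part of the names came only from a table that the study had chosen on a contrast which includes these 24 hr saline arrays, so the count of rising named genes is not independent evidence of the direction. Among the 837 genes named through their RefSeq accession, 69 rose and 28 fell (11.6%, 8.24% higher and 3.35% lower).

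The largest rise of a named gene was that of PTX3 (ENSCAFT00000014125), a secreted pentraxin that recognizes microbes and dying cells. Its level was 4.97 at the lowest, 5.23 at the median and 7.94 at the highest of the 12 dogs at 6 hr, and 8.88, 10.38 and 11.55 at 24 hr, after a median of 5.35 in untreated skin at 0 hr. The times did not overlap. The difference was 4.92 ± 0.30 on the log2 scale (SE), or 30.2-fold (adjusted p = 1.21e-06), with a rise in 12 of 12 dogs. The smallest rise, 1.84, was that of nonsensitized dog 2716, whose 6 hr value was the highest of that time. PTX3 was well above background on 9 of 12 arrays at 6 hr, and since vsn compresses dim values its difference depended on the scale, with 5.67 after scaling to the 75th percentile and 3.78 after normexp background correction.

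**Figure D1:**
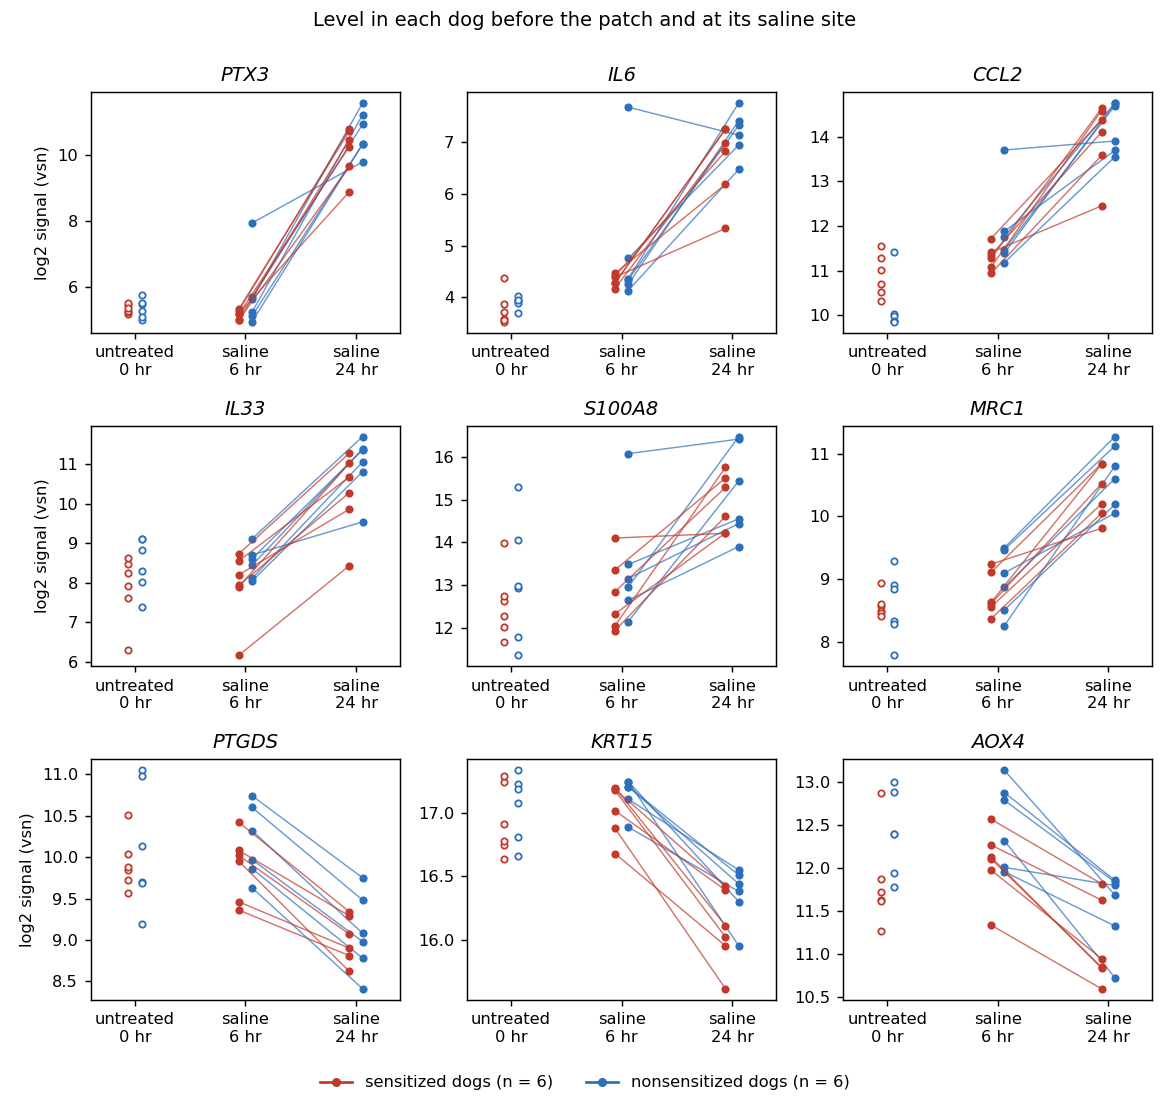
Log2 signal (vsn, vertical axes) of 9 genes in each dog at 0 hr (open points, untreated skin) and at its saline site at 6 hr and 24 hr (filled points, joined by dog), for 6 sensitized (red) and 6 nonsensitized dogs (blue). PTX3, MRC1 and KRT15 do not overlap between 6 hr and 24 hr, and the blue point high at 6 hr in PTX3, IL6, CCL2 and S100A8 is dog 2716.

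Cytokines and their receptors were among the largest rises. IL6 (NM_001003301), which drives the acute-phase response, was well above background on 1 of 12 arrays at 6 hr and on 12 of 12 at 24 hr. Its levels were 4.13, 4.35 and 7.67 (lowest, median, highest) at 6 hr and 5.33, 7.06 and 7.75 at 24 hr. The highest 6 hr value was again that of dog 2716, with the next dog at 4.75. In dog 2716 the change was -0.54, and the other 11 dogs rose. The difference was 2.28 ± 0.29 (adjusted p = 5.83e-05) on the vsn scale, 4.18 with 75th percentile scaling and 1.21 after normexp, so the size of this change depended on how dim values were treated. IL6 passed the filter only through the 24 hr arrays, where it was high, so no exact size can be read from this difference. IL33 (NM_001003180), an alarmin held in the nuclei of keratinocytes and endothelial cells, had a median of 8.32 at 6 hr (6.16 to 9.11) and 10.91 at 24 hr (8.43 to 11.70). It rose in 12 of 12 dogs by 2.41 ± 0.17 (adjusted p = 2.76e-06), and its 3 probes gave 0.98 to 2.61. IL13RA2 (NM_001003075), the decoy receptor of IL-13, lay between 5.59 and 6.22 at 6 hr and between 7.23 and 9.08 at 24 hr. The ranges did not overlap, and the rise of 2.20 ± 0.14 was shared by 12 of 12 dogs (adjusted p = 1.56e-06). Its size ran from 1.6 to 3.01 under the alternative settings described below. IL13RA2 was also the gene among the 15 largest rises that increased in all 11 dogs with both mite arrays, at their mite sites, with a median of 1.66.

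Chemokines rose as well. CCL2 (NM_001003297), a chemoattractant of monocytes, had levels of 10.94, 11.40 and 13.70 at 6 hr and 12.45, 14.23 and 14.75 at 24 hr. The ranges overlapped only through dog 2716 at 6 hr, and the rise of 2.49 ± 0.26 was found in 12 of 12 dogs (adjusted p = 1.61e-05). CCL8, which acts on the same cells, rose by 2.31 ± 0.29 in 11 of 12 dogs, although its 2 probes differed in size (0.83 and 2.31). CCL19, the ligand of CCR7 that guides dendritic cells and T cells, lay between 7.98 and 9.97 at 6 hr and between 10.74 and 12.27 at 24 hr. It rose in 12 of 12 dogs by 2.19 ± 0.19 (adjusted p = 5.86e-06). In all, 7 of the 15 measured genes of the chemokine list rose and none fell (CCL2, CCL4, CCL7, CCL8, CCL13, CCL19 and CXCL8), with a median of 0.53. Over all named genes 15.3% rose. Of the 15 chemokine list genes, 6 are in the study's table. Of the 12 named by accession 5 rose, where 8.24% of all genes named by accession rose. CXCL8, a neutrophil attractant, rose by 1.13 ± 0.33 (adjusted p = 0.0125) in 10 of 12 dogs, was well above background on 8 of 12 arrays at 6 hr and lost its call within the single scan session (1.37, adjusted p = 0.133), with scan session as a term (1.06, adjusted p = 0.276) and with all 59 arrays in the fit (1.13, adjusted p = 0.0648).

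The other genes among the 15 largest rises had varied roles. TNFAIP6, a hyaluronan-binding protein induced by TNF and IL-1, had levels of 7.31, 8.03 and 10.22 at 6 hr and 9.22, 11.02 and 12.41 at 24 hr and rose by 2.81 ± 0.35 (adjusted p = 4.86e-05) in 11 of 12 dogs. ADAMTS4, an aggrecan-cleaving protease, rose by 2.34 ± 0.39 in 11 of 12 dogs, with 6 hr values from 9.10 to 13.26. S100A8, a calcium-binding protein of neutrophils and of stressed keratinocytes, rose by 1.98 ± 0.31 in 12 of 12 dogs, by 0.11 in the dog with the smallest change. Each of these ranges overlapped between the times. FCGR1A, the high-affinity IgG receptor of monocytes and macrophages, rose by 2.17 ± 0.29 in 11 of 12 dogs and missed the FDR within the single scan session (2.27, adjusted p = 0.0531). SERPINA3, named here by the study's table although its description line gives another serpin, rose by 2.32 ± 0.35, and NNMT, which methylates nicotinamide, by 2.07 ± 0.20. The change of SERPINA3 ran from 1.66 to 3.16 under the alternative settings. NNMT was well above background on 9 of 12 arrays at 6 hr, and its change was 2.71 with 75th percentile scaling and 1.33 after normexp. ABCA8, a transporter of the ABC family, rose by 2.28 ± 0.17 in 12 of 12 dogs with no overlap between times. RTEL1, a helicase, rose by 2.21 ± 0.15 (1.68 to 2.9 under the alternative settings), and the human transcript behind this name is a readthrough with its neighbor TNFRSF6B. Dog 2716 had the highest 6 hr level in 11 of the 15 genes with the largest rises, and sensitized dog 2855 the lowest 24 hr level in 10 of them. Without dog 2716 the comparison gave 1480 higher and 1020 lower probes, and without dog 2855 it gave 1560 and 1220.

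Falls were smaller than rises: the 15 largest among named genes ran from -0.74 to -1.23. ANGPTL1 (NM_001109813), a secreted angiopoietin-like protein, had levels of 5.98, 6.79 and 8.34 at 6 hr and 4.89, 5.61 and 6.51 at 24 hr. It fell in 12 of 12 dogs by 1.23 on the log2 scale (SE 0.17, adjusted p = 8.21e-05), and its ranges overlapped. The change was -1.70 with 75th percentile scaling and -0.77 after normexp. PTGDS (NM_001003131), the prostaglandin D2 synthase, went from a median of 9.99 (9.36 to 10.74) to 9.03 (8.41 to 9.75). It fell in 12 of 12 dogs, each by at least 0.55, and on average by 0.99 (SE 0.07, adjusted p = 2.05e-06). KRT15 (ENSCAFT00000025250), the keratin of basal cells and of the hair follicle bulge, was one of 2 among the 15 without overlap, with 16.68 to 17.25 at 6 hr and 15.61 to 16.55 at 24 hr. It fell by 0.87 (SE 0.08, adjusted p = 6.26e-06). Its 0 hr median of 16.99 lay inside the 6 hr range. The other gene without overlap was the zinc finger gene ZNF704, which fell by 0.74 (SE 0.08).

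The other genes among the 15 largest falls follow by role. CYP1A2, a cytochrome P450 of drug metabolism, fell by 1.03 (SE 0.15), AOX4, an aldehyde oxidase of skin, by 0.96 (SE 0.11) and FMO2, a flavin monooxygenase, by 0.81 (SE 0.14), with adjusted p-values of 0.000131, 2.33e-05 and 0.000386. The serotonin transporter SLC6A4 fell by 1.04 (SE 0.10) and the glutamate transporter SLC1A7 by 1.07 (SE 0.14), each in 12 of 12 dogs. SLC1A7 was well above background on 9 of 12 arrays at 24 hr, and its change was -1.78 with 75th percentile scaling and -0.64 after normexp. DEPTOR, an inhibitor of mTOR, fell by 0.83 (SE 0.11), SMTNL2 by 0.77 (SE 0.09) and SLITRK6, a transmembrane protein best known from neurons, by 0.75 (SE 0.17). PLN, the phospholamban of muscle, fell by 0.83 (SE 0.28, adjusted p = 0.0237), with changes from -3.58 to 1.15 over dogs. Its change was -0.55 without nonsensitized dog 2802, and within the single scan session it was -1.65 and missed the FDR (adjusted p = 0.0612). The PLN call was also lost with slide as random block (adjusted p = 0.0572) and after normexp (-0.48). PODXL, a sialomucin of vascular endothelium, fell by 0.95 (SE 0.17) and CLDN3, a tight junction protein, by 0.74 (SE 0.10), but within the single scan session they were at -0.15 (adjusted p = 0.271) and -0.28 (adjusted p = 0.217), and the second PODXL probe was at 0.14. Without scaling between arrays, 10 of these 15 genes no longer passed both limits, since the median of all probes then moved to 0.40, while the 15 largest rises all passed.

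**Figure D2:**
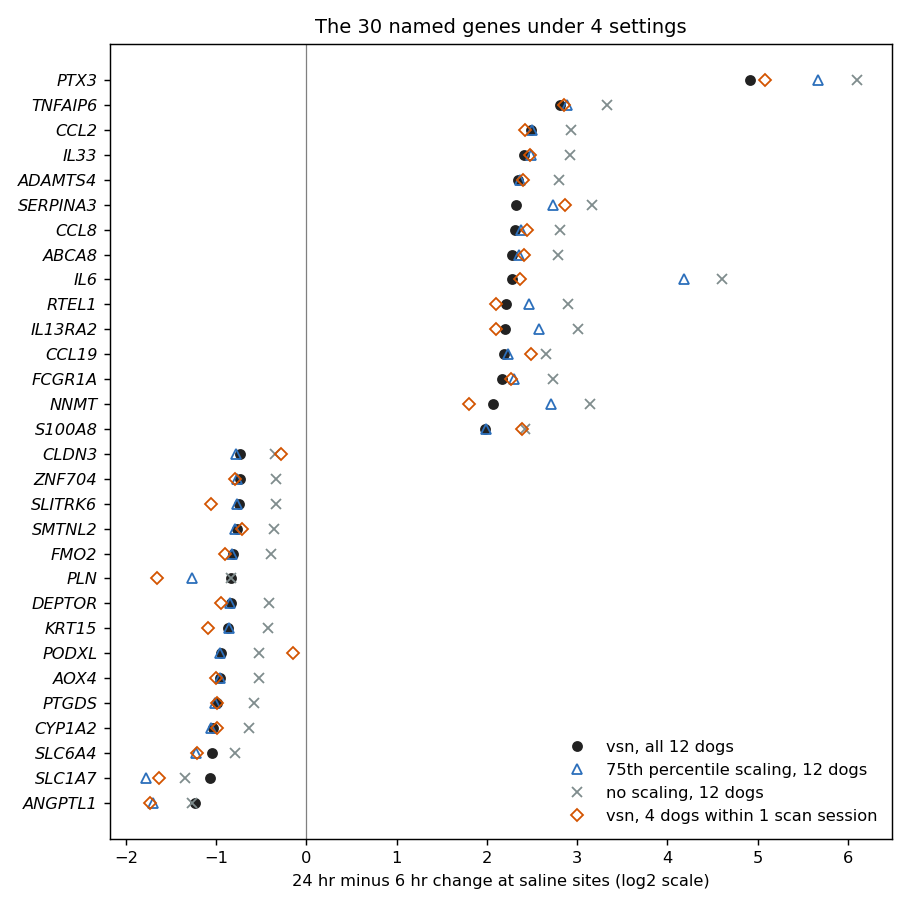
Change from 6 hr to 24 hr at saline sites (log2 scale, horizontal axis) of the 15 genes with the largest rises and the 15 with the largest falls under 4 settings. The rises lie between 1.80 and 6.10 in all 4, IL6 moves from 2.28 to 4.18 with 75th percentile scaling, and PODXL and CLDN3 lie near 0 in the 4 dogs of a single scan session.

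Gene lists by function were then described by counts and medians, against 18.4% of all named genes called (15.3% higher and 3.14% lower) and a median of 0.01 over them. Of the 14 measured genes of the acute-phase and proinflammatory cytokine list, 9 rose, none fell and the median was 0.75. Besides those above, they were the prostaglandin enzymes PTGS2 and PTGES, the cytokine signaling gene SOCS3, the oncostatin M receptor OSMR and the IL-18 inhibitor IL18BP. Of these 14 genes, 8 are in the study's table, and of the 9 named by accession 4 rose. All 4 measured complement genes rose, with a median of 1.33: C5AR1, the receptor of C5a, by 1.67 ± 0.23, C3, the central component, by 1.63 ± 0.14, properdin CFP by 1.03 ± 0.11 and C1R by 0.62 ± 0.12. Of these 4 genes, 3 are in the study's table and 1 was named by accession. C3 did not overlap between times (7.94 to 9.42 against 9.60 to 11.28). C1R lost its call within the single scan session (0.65, adjusted p = 0.0796), as did C5AR1 (1.58, adjusted p = 0.0678), and C1R was under the FC limit without dog 2841 (0.57), 2704 or 2845 (0.58 each) and after normexp (0.58). The matrix protease, inhibitor and coagulation list had 7 rises and no fall among 14 genes, with a median of 0.75. Of these 14 genes, 5 are in the study's table, and of the 10 named by accession 3 rose, with a median of 0.39. TIMP1, an inhibitor of metalloproteinases, rose by 1.74 ± 0.25 and TFPI2, an inhibitor of serine proteases, by 1.56 ± 0.21, and the proteases ADAMTS1, ADAMTS5 and MMP3 rose with ADAMTS4. Within the single scan session TIMP1 (1.87, adjusted p = 0.0542) missed the FDR. MMP9, a gelatinase of neutrophils, was at 0.40 ± 0.34 and did not pass.

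All 3 measured genes of the glucocorticoid response list rose: the metallothionein MT2A by 1.16 ± 0.23, HSD11B1, which regenerates active cortisol, by 1.08 ± 0.13, and the glutamine synthetase GLUL by 0.96 ± 0.11. GLUL did not overlap between times, with 7.32 to 8.15 at 6 hr and 8.17 to 9.63 at 24 hr. In the stress response list 2 of 6 genes rose, the chaperone HSPA5 of the endoplasmic reticulum (0.87 ± 0.07, with no overlap) and the heme oxygenase HMOX1 (0.90 ± 0.24). HMOX1 lost its call within the single scan session (0.97, adjusted p = 0.162). Of the circadian clock list, 2 of 21 genes could be measured, and neither passed the limits (BHLHE41 at -0.24 and RORA at -0.18). The reference genes ACTB and GAPDH were at 0.07 and -0.12 and HPRT1 at 0.40 ± 0.06, below the FC limit in each case. ACTB and GAPDH probes disagreed, with up to 0.82 and 0.38 in others.

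Markers of blood-derived cells were read from the whole biopsy, in which more cells of a type and more RNA per cell cannot be told apart. Of 19 measured monocyte and macrophage markers, 11 rose and none fell, and the median was 0.62. MRC1, the mannose receptor, lay between 8.26 and 9.50 at 6 hr and between 9.81 and 11.27 at 24 hr, without overlap. It rose by 1.67 ± 0.14 in 12 of 12 dogs (adjusted p = 4.71e-06). CD163, a scavenger receptor of tissue macrophages, rose by 1.45 ± 0.16 and AIF1 by 1.22 ± 0.14, and CD14, CD86 and TLR2 also passed. AIF1 missed the FDR within the single scan session (0.83, adjusted p = 0.075). Of these 19 genes, 10 are in the study's table, and of the 10 named by accession 5 rose. Of 7 neutrophil and granulocyte markers S100A8 passed, a share near that of all named genes, and the median was 0.22. MMP9, also in this list, did not pass, and the neutrophil chemokine receptor CXCR2 (0.22 ± 0.07) stayed below the FC limit. Of 7 mast cell markers 2 rose, the histamine-forming HDC by 1.16 ± 0.12 and MS4A2, the β chain of the IgE receptor, by 0.82 ± 0.10, with a list median of 0.47. Of the others, the mast cell protease CMA1 and FCER1A were at 0.56 and 0.47, and the stem cell factor receptor KIT and its ligand KITLG at -0.31 and -0.27. MS4A2 was at 0.57 within the single scan session. Of 9 T and NK cell markers (median 0.09) CTLA4, a checkpoint receptor of T cells, rose (0.62 ± 0.14), a smaller share than the 15.3% of all named genes, and this call was lost without dog 2840, 2853 or 2800 and within the single scan session (0.42, adjusted p = 0.122). CXCR6 (0.582, adjusted p = 5.10e-06) and KLRD1 (0.579, adjusted p = 0.0266) lay just under the FC limit, and each passed in 11 of the alternatives. LCK was at 0.27, CD4 at -0.01 and CD8A at -0.15. The B cell survival factor TNFSF13B (0.84 ± 0.12) and the plasma cell regulator XBP1 (0.60 ± 0.07), both of which other skin cells also express, rose. XBP1 was below the FC limit without dog 2847 (0.56) and within the single scan session (0.58), where TNFSF13B was at 0.73 (adjusted p = 0.157).

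Genes of the vessel wall, the interferon response and type 2 immunity showed single changes. ICAM1 and SELE, adhesion molecules that activated endothelium presents to leukocytes, rose by 1.29 ± 0.21 and 0.89 ± 0.20. They were the 2 that passed of 10 endothelial genes, a share near the 15.3% of all named genes that rose, and the median of the list was -0.06. Among the others, the adhesion molecule VCAM1 was at 0.14, the VEGF receptor KDR at 0.21, VWF at -0.33 and NOS3 at -0.36. The other SELE probe was at 0.17, and within the single scan session SELE was at 1.02 (adjusted p = 0.0573). With scan session as a term SELE (0.83, adjusted p = 0.125) and ICAM1 (1.29, adjusted p = 0.0592) missed the FDR. Of 7 interferon response genes PSMB8, a subunit of the immunoproteasome, rose by 0.90 ± 0.12, and MX1, OAS1 and OAS2 were between 0.39 and 0.45. This share of 1 in 7 was also near that of all named genes. PSMB8 missed the FDR within the single scan session (0.79, adjusted p = 0.0937). Of 6 measured genes of the type 2 and regulatory list (median -0.12), CCL17, a chemokine for Th2 cells, rose by 1.08 ± 0.19 beside IL13RA2. The transcription factor GATA3 was at -0.30, CCL24 at -0.30, IL17A at -0.26 and IL10 at 0.02. IL4, IL5, IL13, IL31, IFNG and FOXP3 have probes on the array, but none was well above background on 10 of 12 arrays of either time.

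Epidermal and dermal lists lay slightly below 0 and held few DEG. None of the 17 measured genes of the cornified envelope and barrier list passed both limits, with a median of -0.31 and 16 of 17 changes below 0. TGM1, the transglutaminase that crosslinks the envelope, was lower in 12 of 12 dogs by 1.47-fold, just under the FC limit (adjusted p = 2.37e-05), as was dermokine DMKN in 11 of 12 dogs. DMKN passed in 5 of the alternatives and TGM1 in 1. In nonsensitized dogs alone 2 of the 17 genes were called lower, and in sensitized dogs 0. KRT1 was at -0.38 ± 0.09. Of these 17 genes, 13 are in the study's table. None of 9 fibroblast and matrix genes (median -0.22), 7 epidermal lipid genes (median -0.19) and 6 wound keratinocyte genes (median -0.22) passed. KRT15 was the DEG among 6 basal keratinocyte and melanocyte genes (median -0.40). Under quantile and 75th percentile scaling these medians stayed below 0. Without scaling those of the cornified envelope, fibroblast, lipid and wound lists were above 0, but all were below the median of all probes by 0.19 or more. FGF7, the keratinocyte growth factor of dermal fibroblasts that had been placed in the hair follicle list, rose by 0.89 ± 0.11 in 12 of 12 dogs. CA9, a carbonic anhydrase induced by hypoxia, fell by 0.70 (SE 0.09) but was under the FC limit after normexp (-0.54) and without scaling (-0.32), and AOX4 and FMO2 were the DEG among 11 oxidizing enzymes (median -0.15). The 3 muscle genes measured, MYH7, DES and MYH1, varied between dogs by several log2 units and did not pass (0.69, 0.57 and 0.14). Neither of the cell cycle genes CCND1 and BIRC5, nor the erythrocyte gene CA1 nor any of 3 sebaceous and adipocyte genes passed.

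**Figure D3:**
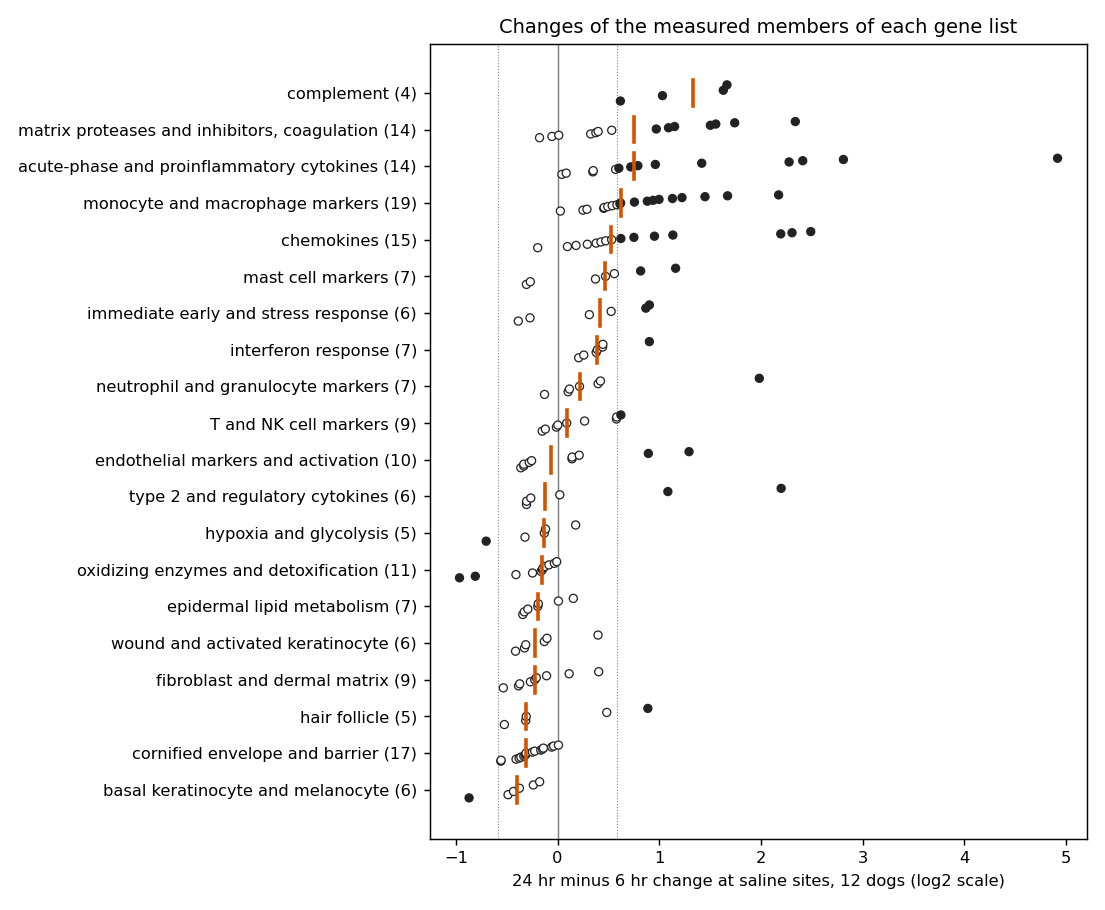
Change from 6 hr to 24 hr at saline sites over 12 dogs (log2 scale) of each measured gene, by list, with the number measured in parentheses. Filled points passed FDR 5% and FC 1.5 (dotted lines), open points did not, and the bar is the median of the list. Complement, protease, acute-phase, macrophage and chemokine lists have medians of 0.53 to 1.33, and the cornified envelope list one of -0.31.

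Many of the largest changes belonged to transcripts without a name in the tables used here. ENSCAFT00000013420 rose by 5.41 ± 0.24 and XM_848659 by 4.32 ± 0.28, and XM_845084 fell by 1.84 (SE 0.14) and ENSCAFT00000008465 by 1.64 (SE 0.20), each in 12 of 12 dogs. The rising transcripts were well above background on 5 and 3 of 12 arrays at 6 hr and so passed the filter through the 24 hr arrays, and their size depends on how dim values were treated.

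The same comparison was made in each group of dogs. In sensitized dogs 962 probes rose (2.25%) and 606 fell (1.42%), together 3.68% of those tested. In nonsensitized dogs 2147 rose (5.03%) and 2605 fell (6.11%), together 11.1%. The balance of directions in this group depended on the scaling. With 75th percentile scaling 2626 rose and 4519 fell, and without scaling between arrays 17272 rose and 554 fell. With scan session as a term the order of the groups turned, with 1580 probes in sensitized and 791 in nonsensitized dogs. That fit left out nonsensitized dog 2847. Among the nonsensitized dogs in it, the 24 hr array of 1 was in the session of the 6 hr arrays. Time and session were thus hardly separable in that group. Leaving out dog 2847 without the term gave 4116 probes in nonsensitized dogs. The 1013 probes called in both groups moved in the same direction in both, which is 64.6% of the calls in sensitized dogs and 21.3% of those in nonsensitized dogs. PTX3 rose by 4.93 in sensitized and 4.90 in nonsensitized dogs, IL33 by 2.35 and 2.48, C3 by 1.52 and 1.74 and MRC1 by 1.62 and 1.72. KRT15 fell by 0.94 and by 0.80. The difference between the groups was tested directly, and 2 of 42663 probes (0.00469%) passed, 1 in each direction (0.00234%), neither with a name. ENSCAFT00000037988 was at 0.27 in sensitized and -0.75 in nonsensitized dogs (difference 1.02 ± 0.13) and ENSCAFT00000016718 at 0.19 and 1.05 (difference -0.86 ± 0.10), both with an adjusted p = 0.0394. At an unadjusted p under 0.05 there were 8759 such probes. The count rested on single dogs: it was 3015 without sensitized dog 2838, 2450 without nonsensitized dog 2802, and 0 without any one of the other 10. It was 927 with all 59 arrays in the fit and 0 with slide as a random block.

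**Figure D4:**
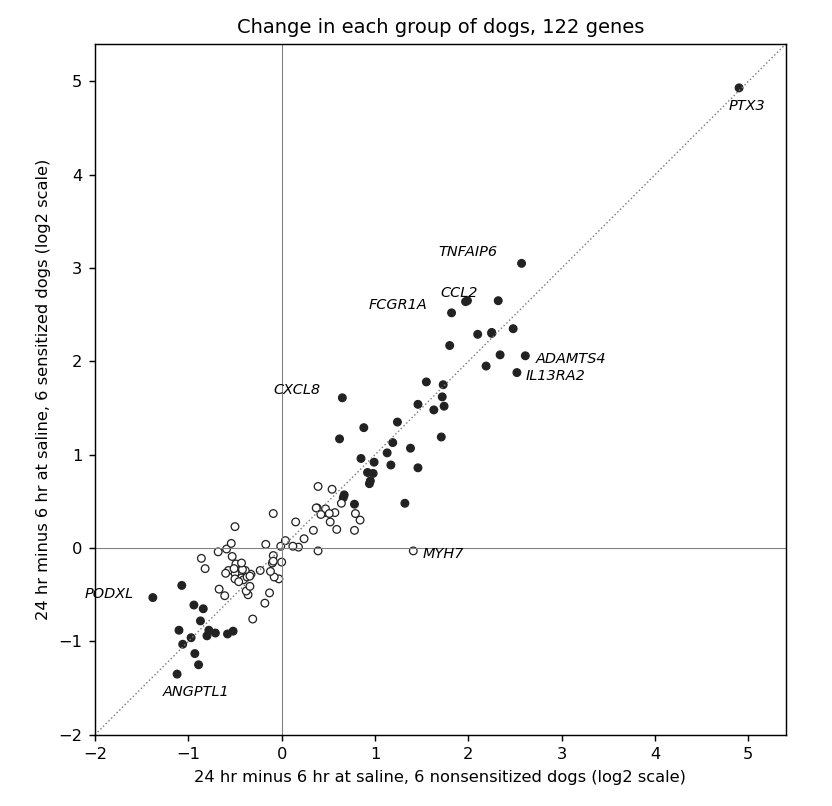
Change from 6 hr to 24 hr at saline sites of the named genes in 6 nonsensitized (horizontal axis) and 6 sensitized dogs (vertical axis), both on the log2 scale, with filled points for genes called over both groups and a dotted line where the groups are equal. PTX3 is at 4.90 and 4.93, and the genes farthest from the line, such as MYH7 (1.41 and -0.03) and PODXL (-1.38 and -0.53), did not pass the test of the difference.

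Finally, the change at saline sites was set against the change at the mite sites of the same dogs. The array of sensitized dog 2839 at its mite site at 24 hr was left out, as the study did, so 47 patch arrays entered the fit. Which site was saline and which was mite was taken from the labels. In nonsensitized dogs, whose saline sites had the higher means of the 5 genes named next at 24 hr, an exchange of the 24 hr site labels could not be checked directly and would change this contrast and the saline comparison in that group. With the labels as given, PTX3 at 24 hr saline sites was at 10.12 in sensitized and 10.68 in nonsensitized dogs. In nonsensitized dogs 555 probes changed more upward (1.3%) and 437 more downward (1.02%) at saline than at mite sites, together 2.33% of those tested. PTX3 led this contrast with 5.51 ± 0.79 (adjusted p = 0.00152): its mean went from 5.78 ± 1.10 (SD, n = 6) to 10.68 ± 0.66 at saline sites, but from 6.53 ± 1.69 to 5.92 ± 0.53 at mite sites. ADAMTS4 (3.92 ± 0.90), TNFAIP6 (3.53 ± 0.83), IL6 (3.51 ± 0.76) and CCL8 (3.12 ± 0.62) also passed. The size for IL6 is uncertain, since 11 of its 12 values at 6 hr saline sites were not well above background and it passed the filter through the 24 hr saline arrays. Their means at mite sites were each lower at 24 hr than at 6 hr, but the mite sites at 6 hr were uneven. PTX3 went from 9.45 to 5.85 in dog 2704 and from 7.63 to 6.33 in dog 2716, while in the other 4 nonsensitized dogs it was 5.24 to 6.10 at 6 hr and slightly higher in each at 24 hr (5.34 to 6.78). TNFAIP6 was likewise lower at 24 hr in these 2 dogs and higher in the other 4. Among the nonsensitized dogs, dog 2704 had the highest level at 6 hr mite sites in all 15 genes with the largest rises. SLC1A7 (-1.58 ± 0.30), SLITRK6 (-1.51 ± 0.45), ANGPTL1 (-1.42 ± 0.34) and the near-identical CYP2A7 and CYP2A13 (-1.45 ± 0.37 and -1.32 ± 0.35), cytochromes P450, changed more downward at saline sites. The total fell from 992 to 39 without dog 2802, to 292 without dog 2704, to 610 without dog 2800, to 599 without dog 2847 and to 192 without the dog block. Without dog 2802, ADAMTS4 (adjusted p = 0.0819), TNFAIP6 (0.074), IL6 (0.0703) and CCL8 (0.0628) missed the FDR, as ADAMTS4 (0.0544) and TNFAIP6 (0.0609) did without dog 2704, and the SLITRK6 call was lost in most alternatives. The calls of ANGPTL1, CYP2A7 and CYP2A13 were each lost without the dog block (adjusted p = 0.126, 0.375 and 0.409), without scaling and without dog 2704, 2716, 2800 or 2802.

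In sensitized dogs 27 probes passed this contrast, 13 more upward (0.0305%) and 14 more downward (0.0328%) at saline sites, together 0.0633%. PTX3 rose at both sites of these dogs, from 5.18 ± 0.14 (SD, n = 6) to 10.12 ± 0.73 at saline and from 7.68 ± 1.25 to 9.09 ± 0.67 (n = 5 at 24 hr) at mite sites, and the difference of the changes was 3.55 ± 0.81 (adjusted p = 0.0873). TNFAIP6 had a mean of 11.00 at mite sites at 6 hr, where it was 7.89 at saline sites, and 11.02 and 10.94 at 24 hr. SERPINB4 (-2.07 ± 0.37, adjusted p = 0.0157), an epidermal serpin with near-identical paralogs, FAM3D (-1.17 ± 0.21), the neuropeptide gene NMB (-0.81 ± 0.15), GPR98 (-0.79 ± 0.15) and the carbonyl reductase CBR3 (-0.68 ± 0.14) changed more downward at saline than at mite sites. None of these genes passed at saline sites alone. SERPINB4 was at 8.30 ± 0.32 and 8.10 ± 0.67 there, while its mean at mite sites went from 8.39 ± 0.27 to 10.27 ± 0.87. PRNP, the prion protein gene, was the named gene with the opposite sign (0.66 ± 0.14, adjusted p = 0.048). Leaving out single dogs gave between 0 and 47 probes, with 0 without dog 2838 or dog 2855, 3 without dog 2839 and 10 without dog 2853, and 17 without dog 2841. The SERPINB4 and FAM3D calls were lost without dog 2838, 2839 or 2855, and that of SERPINB4 also without dog 2841. NMB lost its call without dog 2838, 2839, 2853 or 2855, GPR98 without these or dog 2840, and CBR3 without dog 2838, 2839, 2840, 2841, 2855, 2802 or 2847. PRNP lost its call in nearly every alternative, including 75th percentile (adjusted p = 0.0856) and quantile scaling (0.0643), and all 6 genes lost it without the dog block and without scaling between arrays (adjusted p = 0.0606 for SERPINB4, 0.148 for FAM3D, 0.141 for NMB, 0.413 for GPR98, 0.614 for CBR3 and 0.473 for PRNP). CBR3 also lost it with the excluded array included (adjusted p = 0.0812). The difference between the groups of dogs in this contrast, a test added after the other results had been seen, was significant for 0 probes (limma, 3225 at an unadjusted p under 0.05).

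**Figure D5:**
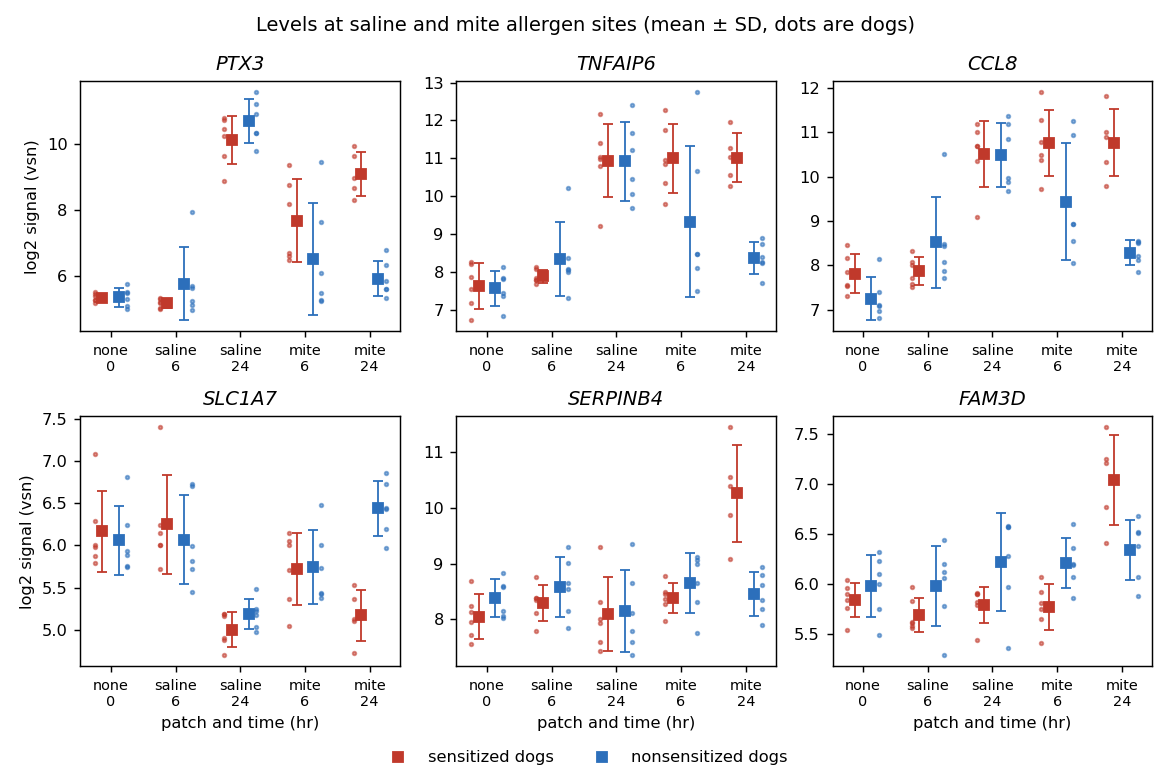
Log2 signal (vsn, vertical axes) of 6 genes in untreated skin and at saline and mite sites at 6 hr and 24 hr, as mean ± SD (squares with bars) and single dogs (dots), for sensitized (red) and nonsensitized dogs (blue), n = 6 each and n = 5 for sensitized dogs at mite sites at 24 hr. PTX3 in nonsensitized dogs is at 10.68 at saline sites and at 5.92 at mite sites at 24 hr, and SERPINB4 in sensitized dogs is at 8.10 and 10.27.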

How the data were processed

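Canine skin biopsies had been hybridized to one-color Agilent 8x60K custom arrays, and the deposited values are spot intensity values that the authors extracted with Feature Extraction 10.7.3.1 (background-subtracted processed signal, with flags for spots well above background). The series table and the scanner files held identical processed signals. Noncontrol spots (61657) without outlier flags were variance stabilized with a vsn model rewritten for this work (fitted to 59 arrays, 0.9 of spots kept, 7 iterations). The array the study excluded for RNA quality was left out. The vsn model adds about 14.9 signal units (8.26 to 29.5 over arrays) before the logarithm, so changes of dim probes are understated. Spots of a probe were averaged, and probes well above background on 10 of 12 arrays of either time were kept (17405 were not). The fit used limma 3.58.1 in R 4.3.3 with dog as a fixed block and Benjamini-Hochberg adjustment over all probes, and a probe was called a DEG at FDR 5% and FC of at least 1.5. The ± values after a change are standard errors and those after a mean are SD.

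Dogs were blocked because the arrays of a dog come from the same animal. Deviations from the group means correlated within dogs (r = 0.23 to 0.66) and not between dogs (medians of -0.21 to 0.03). Centering on the group means itself pulls the correlations between dogs below 0, so only the values within dogs bear on the pairing. Replicates were separate dogs, and their number limits the precision. On simulated data for the comparison over both groups (42550 probes, 200 changed), 100% of 2-fold and 99% of 4-fold changes were recovered with 1 false call. The simulated noise was independent between probes and held no shift between slides or times. The count of false calls therefore cannot speak to error from slides, which were split by time in the data.

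Of 54633 identifiers, 1526 had a symbol: 1080 through RefSeq accessions and 446 through a table of the study, where a name that rested on a human match needed 80% identity. A gene was represented by its brightest probe. The genes named in the text are the 15 with the largest rises and the 15 with the largest falls that held in 11 of 12 dogs, the 5 largest each way in the contrasts between groups and between sites, up to 4 per list, the clock and reference genes, PTX3 and IL6; further list members are named without values, some list members are not reported here, and IL4, IL5, IL13, IL31, IFNG and FOXP3 were added after their flags had been seen. The members and the 28 lists were chosen with earlier results of these data known. The 24 hr saline arrays entered the contrast behind the study's table. Alternatives covered the scaling, background correction, filter, block, slide, arrays in the fit and each dog left out.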

Additional observations from a re-analysis of the deposited data

Results flagged for a closer look

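Among the 30 genes with the largest changes, the 24 hr minus 6 hr change was examined in each group of 6 dogs for a dog that stood apart. Such a dog was found in 5 of 60 sets. The genes were chosen on these same changes and every flag was of dog 2716 or 2855. The sets are thus not independent, and the usual rate of about 1 in 20 sets does not apply. Nonsensitized dog 2716 stood apart in PTX3 (1.84, with the next dog at 5.19), IL33 (0.84, next 2.59) and IL6 (-0.54, next 2.19). Sensitized dog 2855 stood apart in CCL2 (1.04, next 2.64) and FCGR1A (-0.08, next 2.61). The change differed between the groups of dogs for ENSCAFT00000037988 (1.02, sensitized minus nonsensitized) and ENSCAFT00000016718 (-0.86), by the test of the difference itself.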

How the results depend on the processing

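Counts are probes past FDR 5% and FC 1.5 unless stated. With 75th percentile scaling 3660 probes passed over both groups of dogs (1836 higher, 1824 lower) and 7145 in nonsensitized dogs. Without scaling between arrays, which moved the median of all probes to 0.40, 11493 passed over both groups (11309 higher, 184 lower), 6772 in sensitized and 17826 in nonsensitized dogs, and the saline minus allergen contrast gave 4 and 254. After normexp the counts were 1454, 938 and 3098, without a fold limit 21305, 8942 and 19744 (1765 for the saline minus allergen contrast in nonsensitized dogs), and with treat against 1.5-fold 170, 22 and 56. Scan session as a term (without dog 2847) gave 1550 over both groups (778 higher, 772 lower), 1580 in sensitized (722 and 858) and 791 in nonsensitized dogs (381 and 410). The single scan session gave 1520 (680 and 840, 4 dogs). Both were chosen after seeing the data. The difference between the groups of dogs, 2 probes, became 0 without the replicate block, with quantile scaling, without scaling, without the filter on dim probes, with slide as random block, with treat and with scan session as a term, 1 after normexp and 927 with all 59 arrays in the fit. Without the replicate block 2216 probes passed over both groups, 1225 in sensitized and 4360 in nonsensitized dogs, and the saline minus allergen contrast gave 0 and 192. That contrast gave 42 in sensitized dogs with slide as random block and 531 in nonsensitized dogs with the excluded array included. Leaving out each dog in turn gave 1982 to 2780 over both groups, 1356 to 2018 in sensitized and 4116 to 5862 in nonsensitized dogs, 0 to 3015 for the difference, and 0 to 47 and 39 to 1113 for the saline minus allergen contrast in sensitized and nonsensitized dogs. The reference gene list had a median of 0.34 with the mean over probes in place of the brightest probe (0.07). Where a count moved, the cause was not tested. Among values of named genes under the alternatives, 3074 kept their side of the limits, 144 lost it, 61 gained it and 50 uncalled values moved, nearly all with a change of sign. No called value changed sign.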
